A study of Mus musculus with 4 samples.

Results

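Glucose uptake and glycolysis were followed through 10 genes, taken by symbol from tables of 25239 gene symbols each. They were Slc2a1 and Slc2a3 (glucose transporters), Hk1 and Hk2 (hexokinases), Pfkl and Pfkp (phosphofructokinases), Aldoa (aldolase), Pkm (pyruvate kinase), Ldha (lactate dehydrogenase) and Pdk1 (pyruvate dehydrogenase kinase). All 10 were present in every library and passed the filter on low counts. The 10 genes and the lists compared with them were chosen with earlier results of these data known. How far that choice shaped their contrast with all genes was not tested. The libraries were polyadenylated RNA of mouse embryonic stem cells (mESC) of genotype Ogt fl/fl, in which both groups carry an Ogt gene flanked by loxP sites. The Ogt iKO group held 2 libraries from cells given 4-hydroxytamoxifen (4-OHT) for 6 days to delete Ogt, and the control group held 2 libraries from cells of that genotype kept without 4-OHT. Both groups grew with leukaemia inhibitory factor on mouse fibroblasts that had been stopped from dividing, and viable cells were sorted away from these feeders. The treated cells were in addition selected for a yellow fluorescent protein, and this selection and 4-OHT itself cannot be told apart from the loss of Ogt. Nothing in the labels says that the 2 libraries of a group came from separate cultures, so the p-values measure the spread between these libraries.

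Glycolysis splits glucose into pyruvate in the cytosol. Transporters of the SLC2A family bring glucose in, hexokinase traps it by phosphorylation, phosphofructokinase makes the committed step, and aldolase, pyruvate kinase and the enzymes between them carry the carbon to pyruvate. Lactate dehydrogenase turns pyruvate into lactate, and the PDK kinases inhibit pyruvate dehydrogenase. Pluripotent stem cells are known for a high rate of glycolysis. OGT, the enzyme deleted here, attaches N-acetylglucosamine to proteins from a sugar nucleotide that cells make from glucose through the hexosamine pathway.

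Total counts per library ran from 14668489 to 16504204. Ogt had 437 and 389 counts in Ogt iKO and 2963 and 3108 in control, or 12.9% of the control level in CPM (log2 fold change of Ogt -2.96, SE 0.0676, adjusted p 2.49e-07, edgeR). Of 10 stem cell markers, 9 (90%) were called lower in Ogt iKO and 0 higher, against 32.0% and 33.2% of all genes tested. Most of the markers lay in the top 10% of tested genes by mean CPM, where 59.9% were called lower and 18.4% higher. Of the 10 markers 3 fell at least 2-fold, and the median log2 fold change was -0.73. The 4 with the smallest adjusted p had log2 fold changes of -1.59 (Sox2), -1.47 (Nanog), -1.13 (Tdgf1) and -0.86 (Utf1). All 10 markers were detected in every library. Their summed level was 2879 and 3211 CPM in Ogt iKO against 4964 and 4983 CPM in control. CPM are counts scaled to library size after trimmed-mean (TMM) adjustment. Markers of fibroblasts were detected in all 4 libraries, and Ogt iKO replicate 1 stood apart. Which cells these counts came from was not tested. The summed level of 13 fibroblast markers was 2635 and 604 CPM in Ogt iKO replicates 1 and 2 and 1028 and 1177 CPM in the controls, and none of the 13 was at 0 in any library. Of the 13, only Pdgfrb, a growth factor receptor, was called, and it was higher in both Ogt iKO libraries (25.0 and 15.8 CPM against 5.49 and 7.88, log2 fold change 1.61, adjusted p 0.000533, edgeR). Without Ogt iKO replicate 1 it was still called higher (1.24), and 11 of the 13 were called lower. Values without that library are given for the 10 genes together and for each list whose counts changed. The sort used antibodies to proteins encoded by Epcam and Thy1. The labels give the Thy1 product as marking the stem cells and the Epcam product as excluding feeders, the reverse of their common use, so the counts of these genes do not check the sort. Epcam, an epithelial marker, had 4794 and 4452 counts with Ogt deleted and 5376 and 4704 without deletion, and Thy1, high on fibroblasts, had 437 and 138 against 241 and 240.

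All of the 10 genes but Hk1 fell in Ogt iKO, and none rose, also at an unadjusted p under 0.05. Of all 14525 genes tested, 65.3% were called at an adjusted p under 0.05 (quasi-likelihood test of edgeR, Benjamini-Hochberg adjustment), 32.0% lower and 33.2% higher, against which the count of 9 lower is to be read. With totals in place of TMM the split over all genes was 3288 lower and 6105 higher, against 4651 and 4827. The libraries of the groups did not overlap for these 9 genes, with Ogt iKO below control, and for 83.2% of all genes, 40.9% below and 42.3% above. The background was higher among abundant genes. In the top 10% of tested genes by mean CPM, where 8 of the 10 genes lay, 59.9% were called lower and 18.4% higher. The median log2 fold change of the 10 genes was -1.05, against 0.024 over all genes tested. Of the 9 genes, 6 fell at least 2-fold (Slc2a1, Pfkl, Pfkp, Aldoa, Pkm and Ldha), a size reached by 6.04% of all genes tested. Neither that share nor the median was worked out for abundant genes alone, so these contrasts do not allow for level. With library totals for scaling Slc2a1 (-0.92) and Pkm (-0.84) fell short of 2-fold, which left 4. Without Ogt iKO replicate 1 Pkm (-0.97) fell short and Slc2a3 (-1.005) passed. In bulk RNA, fewer cells that express a gene and less RNA per cell cannot be told apart.

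Together the 10 genes took 0.688% and 0.701% of all counts in control replicates 1 and 2 and 0.356% and 0.360% in Ogt iKO replicates 1 and 2. On the TMM scale their sum was 7336 and 7397 CPM in the control libraries and 3356 and 3399 CPM after deletion, 45.8% of control. The fibroblast marker sums of the 2 Ogt iKO libraries differed 4.36-fold. The part of fibroblast RNA in the results was not tested. Leaving out Ogt iKO replicate 1 does not test it, because the marker sum of replicate 2 (604 CPM) also lay apart from the controls (1028 and 1177 CPM). Without Ogt iKO replicate 1, the same 9 genes were called lower, with log2 fold changes of -1.15 for Slc2a1, -1.005 for Slc2a3, -0.76 for Hk2, -1.57 for Pfkl, -1.92 for Pfkp, -1.82 for Aldoa, -0.97 for Pkm, -1.36 for Ldha and -0.33 for Pdk1. Hk1 had -0.15 (adjusted p 0.203, edgeR).

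**Figure D1:**
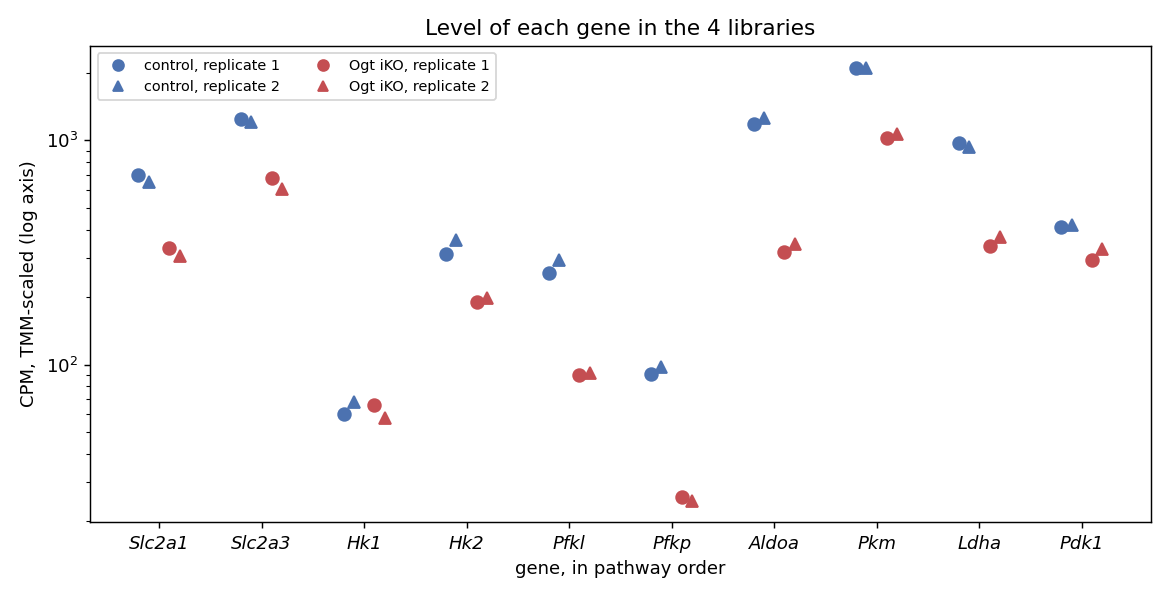
Level of the 10 genes in each library, as TMM-scaled CPM on a log axis, with genes in pathway order, colours for the group and marker shapes for the replicate. For 9 genes both Ogt iKO points lie below both control points; for Hk1 the groups overlap between 60.4 and 66.0 CPM.

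Both glucose transporters of stem cells fell to about the same degree. Slc2a1 encodes GLUT1, a widely expressed transporter of basal glucose uptake, and lies on chromosome 4 from 119108745 to 119137330 in GRCm38. Its level was 332 and 304 CPM in Ogt iKO replicates 1 and 2 and 703 and 652 CPM in control replicates 1 and 2. The groups did not overlap, and the log2 fold change of Slc2a1 was -1.09 (SE 0.0676, adjusted p 5.03e-06, edgeR). Slc2a3 encodes GLUT3, a transporter with high affinity for glucose, and lies on chromosome 6 from 122727809 to 122802363. It stood at 679 and 609 CPM in Ogt iKO and 1243 and 1210 CPM in control. Ogt iKO again lay wholly below control, at 52.5% of its level (log2 fold change of Slc2a3 -0.93, SE 0.0675, adjusted p 1.07e-05, edgeR).

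The hexokinases differed. Hk2 encodes the inducible hexokinase that can bind mitochondria and lies on chromosome 6 from 82725025 to 82774454. It went from 311 and 361 CPM in control to 189 and 198 CPM in Ogt iKO, with no overlap (log2 fold change of Hk2 -0.79, SE 0.0763, adjusted p 4.16e-05, edgeR). Hk1, the broadly expressed hexokinase, lies on chromosome 10 from 62268855 to 62379920. Its levels of 66.0 and 57.7 CPM in Ogt iKO lay around the 60.4 and 68.1 CPM of control. The log2 fold change of Hk1 was -0.054 (SE 0.0936, adjusted p 0.632, edgeR), and with library totals for scaling it was 0.11.

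Both phosphofructokinase genes among the 10 fell by 3-fold or more, and Aldoa by nearly as much as the larger of them. Pfkl encodes the liver-type subunit and lies on chromosome 10 from 77986947 to 78009807. It stood at 90.2 and 92.1 CPM in Ogt iKO against 256 and 292 CPM in control, a 3.01-fold fall (log2 fold change of Pfkl -1.59, SE 0.0738, adjusted p 1.32e-06, edgeR). Pfkp encodes the platelet-type subunit and lies on chromosome 13 from 6579874 to 6649060. It fell 3.75-fold, from 90.6 and 97.8 CPM to 25.5 and 24.7 CPM, and its log2 fold change was -1.91 (SE 0.0805, adjusted p 9.98e-07, edgeR). This was the largest fall of the 10, and that of Aldoa differed from it by less than 1 SE. Aldoa, the main aldolase outside liver and brain, lies on chromosome 7 from 126795234 to 126800994. It went from 1180 and 1263 CPM in control to 318 and 344 CPM in Ogt iKO, 27.1% of control (log2 fold change of Aldoa -1.88, SE 0.0673, adjusted p 5.37e-07, edgeR). Only 1.07% and 1.15% of all genes tested had a log2 fold change as low as those of Pfkp and Aldoa.

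At the end of the pathway, Pkm and Ldha fell more than Pdk1 did. Pkm, whose alternative exons give both forms of pyruvate kinase outside liver and red cells, lies on chromosome 9 from 59656576 to 59679372, and the gene count does not separate the forms. It was the most counted of the 10 genes, at 2109 and 2098 CPM in control and 1026 and 1071 CPM in Ogt iKO, 49.9% of control (log2 fold change of Pkm -1.004, SE 0.0575, adjusted p 3.66e-06, edgeR). Ldha, which makes lactate from pyruvate, lies on chromosome 7 from 46842274 to 46855627. It stood at 974 and 938 CPM in control and at 338 and 371 CPM in Ogt iKO (log2 fold change of Ldha -1.43, SE 0.0654, adjusted p 1.25e-06, edgeR). Pdk1 lies on chromosome 2 from 71873215 to 71903858 and had 409 and 418 CPM in control against 292 and 328 CPM in Ogt iKO. Its groups did not overlap either, but it kept 74.9% of the control level (log2 fold change of Pdk1 -0.42, SE 0.0674, adjusted p 0.000723, edgeR), and 24.5% of all genes tested had a log2 fold change as low.

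How far these counts can be assigned to single genes differed. Exact 50-base words of the annotated transcripts (GENCODE M21) were compared with the transcripts of all other genes. Hk2 and Pdk1 shared 0% of their words, while Ldha shared 9.26%, among others with 19 pseudogenes, and Pkm 25.8%, with 7 pseudogenes and a gene on the same strand, Gm49759, that covers 15.3% of its exon length. The other 6 shared from 0.0298% (Pfkl) to 5.13% (Aldoa), and the opposite-strand gene Pitrm1 overlaps 5.58% of the exon length of Pfkp. Which reads the deposited counts left out for mapping to several places is not given in the sources used here, so the level of Pkm is uncertain. Of the 9 genes other than Pkm, 8 were called lower.

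The rest of the pathway, a list of 22 other glycolysis enzymes and transporters, stood near the background. Of the 18 that could be tested, 7 (38.9%) were lower, 4 (22.2%) were higher and 7 were not called, against 32.0% and 33.2% of all genes tested, with a median log2 fold change of -0.13. The 7 that fell included Tpi1, the triose phosphate isomerase, at -0.9998 (SE 0.0682) and Pgk1, the phosphoglycerate kinase, at -1.65 (SE 0.135). Slc2a8, a transporter of intracellular membranes, had a log2 fold change of -1.29, the enolase gene Eno1 -0.78, the mutase genes Pgam1 and Bpgm both -0.33 and the liver-type pyruvate kinase Pklr -1.21 on 7 to 18 counts a library. These calls had adjusted p values from 7.76e-06 (Tpi1) to 0.0228 (Pklr) in edgeR. Those of Pgam1 (adjusted p 0.108, edgeR) and Bpgm (0.188) were lost with library totals for scaling, that of Eno1 (0.158) with a robust spread, that of Pklr (0.266) with DESeq2 and without any 1 of the 4 libraries, and that of Bpgm also without control replicate 1 (0.146).

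The 4 that rose were Slc2a4, Pgam2, Eno3 and Aldoc. Slc2a4, the insulin-responsive transporter GLUT4, had 84 and 89 counts after deletion against 30 and 27 in control (log2 fold change 1.52). Pgam2, the muscle mutase, rose by 1.33 and Eno3, the muscle enolase, by 1.05, from 43.4 and 38.96 CPM in control to 80.4 and 89.9 CPM. Aldoc, the brain aldolase, rose by 0.59. Their adjusted p values ran from 2.3e-05 (Eno3) to 0.00146 (Aldoc) in edgeR. Not called were Gpi1 (-0.11), Pfkm, the muscle-type phosphofructokinase (0.048), Ldhb (-0.14), Adpgk (0.075), Hk3 (1.36, on 31 and 5 counts against 11 and 2), Eno2 (0.52) and Gapdh (-0.40). Gapdh had only 47 to 71 counts a library, and 25.1% of its words were shared with other genes, 213 of them pseudogenes. The value of Gapdh is therefore uncertain. The words of Pgk1 (53.9%), Pgam1 (36.2%) and Eno1 (26.0%) were also widely shared, and those of Ldhb (21.0%), Pklr (20.5%) and Gpi1 (15.8%) less so. The same-strand gene Gm26513 covers 10.2% of the exon length of Pfkm. Ldhb and Pfkm enter the isozyme shares below.

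**Figure D2:**
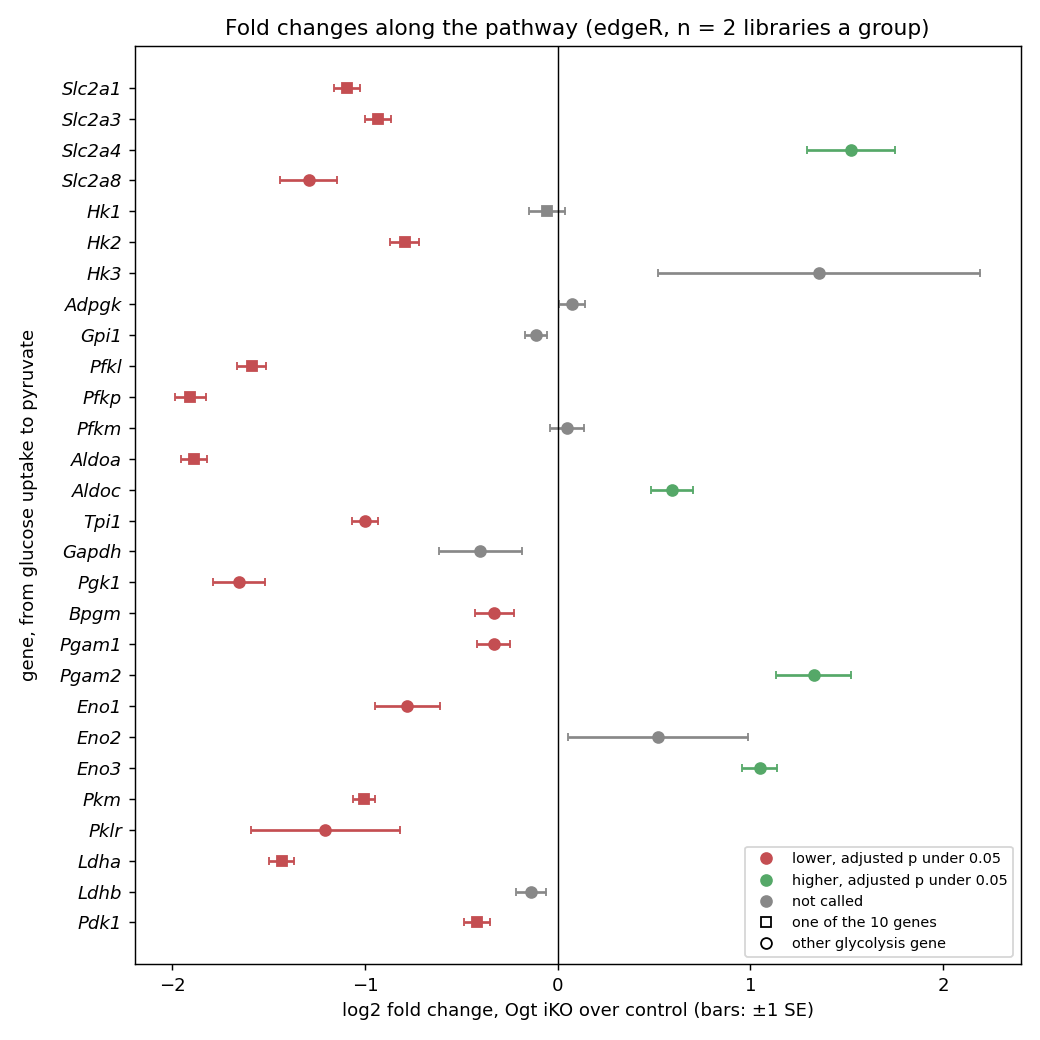
Log2 fold change of the 28 tested glycolysis genes, Ogt iKO over control (edgeR, n = 2 libraries a group), ordered from glucose uptake to pyruvate, with bars of 1 SE, squares for the 10 genes and circles for the others. Red points passed the threshold below 0 and green ones above it; the longest bars, of Hk3 and Eno2, belong to genes with few counts.

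Within families, the isozymes that fell most took a smaller share. This follows from the fold changes given above and is not a separate result. Shares were taken from counts per kilobase of exon in each library, and their size depends on the length used. With the longest principal transcript in place of all exons, a choice made after seeing the data, the difference in share went from -4.73 to -8.21 percentage points for Pfkp, from -6.45 to -9.85 for Hk2 and from -5.41 to -3.39 for Aldoa. With raw counts it was -8.86 for Pfkp and went from -12.9 to -7.49 for Ldha. Each kept its direction. The largest shift was among the phosphofructokinases, where Pfkl made up 46.8% and 48.3% of the family in control replicates 1 and 2 and 26.4% and 23.4% in Ogt iKO. Pfkm made up 44.97% and 43.7% in control and 69.9% and 73.4% in Ogt iKO. The share of Pfkp was 8.26% and 8.05% in control and 3.72% and 3.14% after deletion. The level of Pfkm itself did not pass the test (119.6 and 144.4 CPM against 123.1 and 132.1).

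The lactate dehydrogenases moved in a similar way. Ldha made up 88.1% and 88.3% of Ldha and Ldhb in control and 75.04% and 75.6% in Ogt iKO. Ldhb, whose subunit favours the reaction from lactate to pyruvate, took the remainder, while its own level of 53.3 and 56.7 CPM against 62.3 and 58.8 CPM in control did not pass the test (adjusted p 0.143, edgeR). The share of Aldoa over Aldoc fell from 98.7% to 93.3%, and that of Hk2 over Hk1 from 88.2% (SD 0.204) to 81.7% (SD 1.88). Pdk1 held 66.3% of the 4 PDK genes in control and 61.3% in Ogt iKO. Pdk3, named after its values were seen, was next at 29.6% and 28.1% in the control libraries and 34.3% and 31.7% after deletion. Slc2a1 held 53.3% (SD 0.839) of the pair Slc2a1 and Slc2a3 in control and 50.5% (SD 0.401) after deletion, but 40.1% and 37.5% with principal transcript lengths. For each of these shares the groups did not overlap. An exact permutation test of 2 against 2 libraries gave p = 0.333 (two-sided), the smallest it allows.

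**Figure D3:**
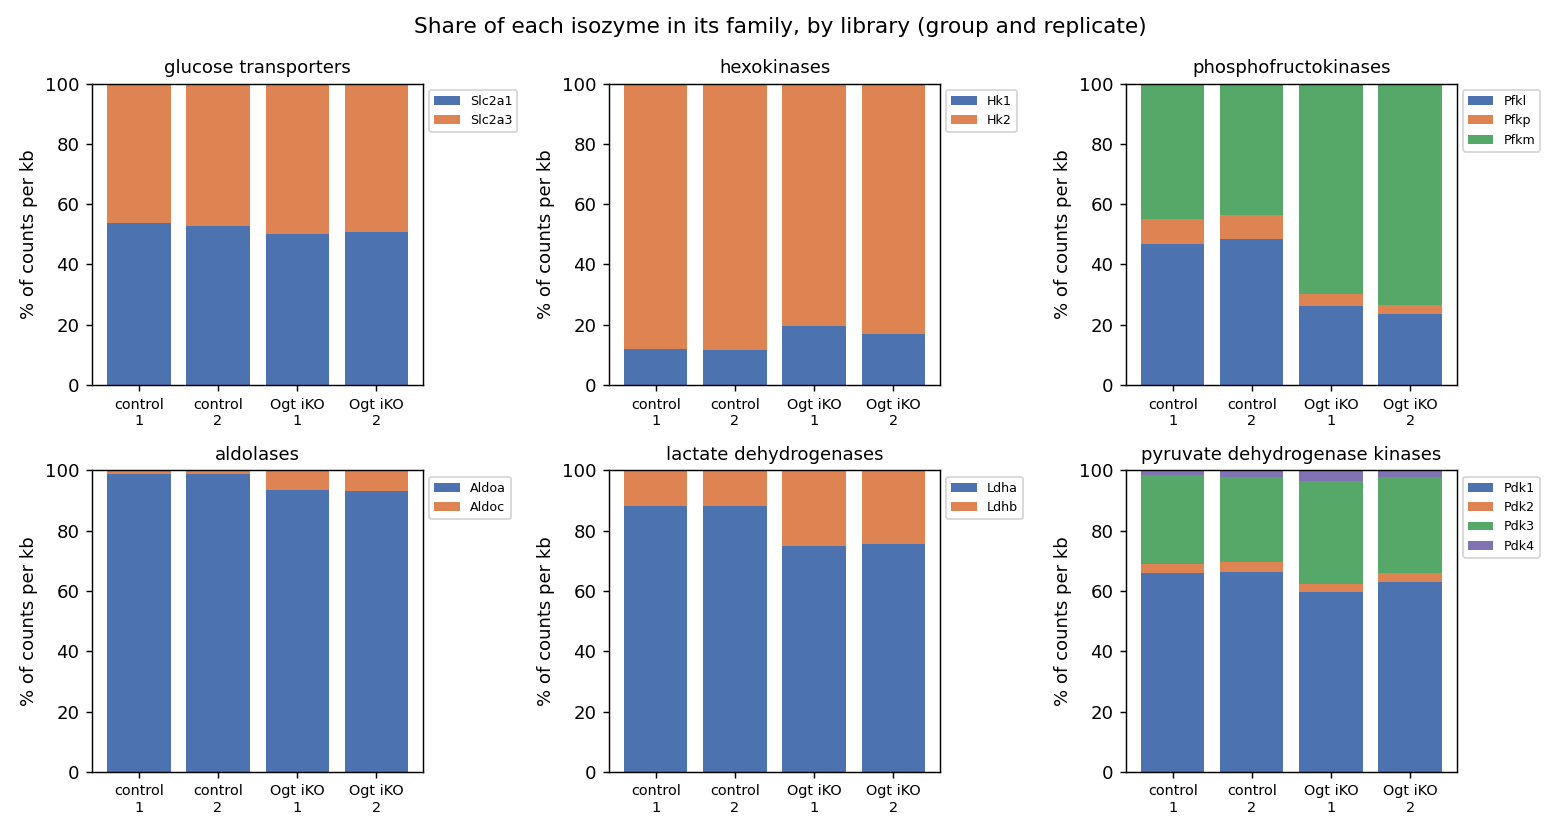
Share of each isozyme in its family by library, in percent of counts per kilobase of exon, for 6 families with the 2 control bars to the left of the 2 Ogt iKO bars. The blue part of the phosphofructokinase panel, Pfkl, drops from 47.5% to 24.9% on average, and that of the lactate dehydrogenase panel, Ldha, from 88.2% to 75.3%.

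Levels of different genes were compared per kilobase of exon, and their order depended on the length taken. With all exons the control order was Pkm (421 CPM per kilobase), Aldoa (420), Ldha (289), Slc2a1 (193), Slc2a3 (169), Hk2 (56.3), Pdk1 (53.1), Pfkl (41.04), Hk1 (7.53) and Pfkp (7.03). Pkm and Aldoa, Hk2 and Pdk1, and Hk1 and Pfkp did not differ beyond their spread. In Ogt iKO the order of levels was Pkm (210 CPM per kilobase), Aldoa (114), Ldha (107), Slc2a1 (90.7), Slc2a3 (88.9), Pdk1 (39.8), Hk2 (32.5), Pfkl (13.7), Hk1 (7.25) and Pfkp (1.88). There Aldoa and Ldha, and Slc2a1 and Slc2a3, lay within their spread, and Pdk1 stood above Hk2. Exon length here joins all annotated transcripts. With the length of the longest principal transcript instead, a choice made after seeing the data, Slc2a3 (309.8 CPM per kilobase in control) stood above Slc2a1 (208), Pfkl (73.4) above Hk2 (60.9) and Pfkp (22.7) above Hk1 (16.7).

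Regulators of glycolytic flux, a short list that mixes genes promoting and opposing glycolysis, were more often called higher than lower. Of the 11 tested, 6 (54.5%) were higher and 3 (27.3%) were lower, against 33.2% and 32.0% of all genes tested, with a median log2 fold change of 0.63. Without Ogt iKO replicate 1 they were 5 and 4. All 4 PFKFB genes, whose enzymes make and break fructose 2,6-bisphosphate, the activator of phosphofructokinase, were higher. Pfkfb4 rose by 1.43 and Pfkfb3 by 0.74, and Pfkfb1 (0.88) and Pfkfb2 (0.63), named after their values were seen, rose too. Pck2, the mitochondrial phosphoenolpyruvate carboxykinase, had a log2 fold change of -1.85. Arrdc4, a glucose-responsive arrestin that lowers glucose uptake, had one of -1.81, with 256 and 232 counts after deletion against 780 and 842. Its relative Txnip, named after its value was seen, had 0.18 (adjusted p 0.0393, edgeR), a call lost with DESeq2 (0.0723), without a filter on low counts (0.0777), without Ogt iKO replicate 1 (0.224) and without either control library (0.150 and 0.117).

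Genes that decide the fate of pyruvate and lactate stood near the background. Of 17 genes, 4 (23.5%) were higher and 6 (35.3%) lower, against 33.2% and 32.0% of all genes tested. The median log2 fold change was -0.11. Pcx, the pyruvate carboxylase that feeds the citric acid cycle, rose by 1.37, from 21.7 and 20.3 CPM in control to 55.5 and 53.3 CPM. Pdha1, a catalytic subunit of pyruvate dehydrogenase, had a log2 fold change of -0.82, and Slc16a3, the lactate exporter MCT4, one of -0.84. Slc16a1, the transporter MCT1, named after its value was seen, had -0.27, a call lost with library totals for scaling (adjusted p 0.149, edgeR). Slc16a7, the transporter MCT2, had 67 and 58 counts after deletion against 3 and 4 and was called higher (adjusted p 2.54e-05, edgeR).

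In the pentose phosphate pathway 5 of 8 genes (62.5%) were lower and 2 higher, but with library totals for scaling only 2 were lower, and 3 without Ogt iKO replicate 1. Over all genes tested the shares were 32.0% lower and 33.2% higher. Tkt, the transketolase, had a log2 fold change of -0.91 and Taldo1, the transaldolase, -0.83. H6pd, which works in the endoplasmic reticulum, rose by 1.001 and Rpe by 0.32. Of 9 glycogen genes 4 (44.4%) were higher and 3 (33.3%) lower, near the shares over all genes, and 4 were lower without Ogt iKO replicate 1. Gys1, the glycogen synthase, had -1.14 and Pgm2 -1.16, whereas Gyg, the glycogenin that primes the polymer, rose by 1.08 and Gbe1, the branching enzyme, by 1.197. Among the testis isozymes of glycolysis, 4 of 7 could be tested and 1 of them, Eno4, was higher (log2 fold change 1.66). Ldhc (-0.51), Ldhal6b (0.36) and Gapdhs (-0.12) did not pass the test, and Ldhal6b lies wholly under a gene of the opposite strand.

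Transcription factors known to bind glycolysis genes were lower for 7 of 13 (53.8%) and higher for 2 (15.4%), against 32.0% and 33.2% of all genes, with a median log2 fold change of -0.43. Mycn had a log2 fold change of -1.19, from 186.7 and 202.4 CPM in control to 81.4 and 89.4 CPM. Epas1, which encodes HIF-2alpha, had -1.49, Foxk2 -0.52 and Arnt, the partner of both HIF alpha subunits, -0.45. Hif1a and Myc were named after their values were seen. Hif1a rose by 0.45 (adjusted p 0.000354, edgeR), and Myc had -0.70. Counts of Hif1a were 6418 and 5662 after deletion and 4400 and 3948 without it. HIF-1alpha is controlled largely through the stability of its protein, which these data do not measure.

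Other targets of the hypoxia response were lower for 11 of 20 genes (55%) and higher for 6 (30%), against 32.0% and 33.2% of all genes tested. Their median log2 fold change was -0.70, and their summed level in CPM was 80.9% of control. Vegfa, the vascular growth factor, had 94 and 80 counts after deletion against 312 and 360 (log2 fold change -2.03), and Tfrc, the transferrin receptor, had -0.80. The collagen-modifying enzymes Plod2 (0.91) and P4ha1 (0.92) rose. In the oxygen sensing list, Egln3, a prolyl hydroxylase that is itself a HIF target, had -2.21, with 105 and 91 counts against 447 and 411. Vhl had 0.28 (adjusted p 0.0235, edgeR), a call lost with DESeq2 (0.0968), without Ogt iKO replicate 1 (0.128) and without either control library (0.0599 and 0.117). Hif1an (-0.054) and Egln2 (0.067) were not called.

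**Figure D4:**
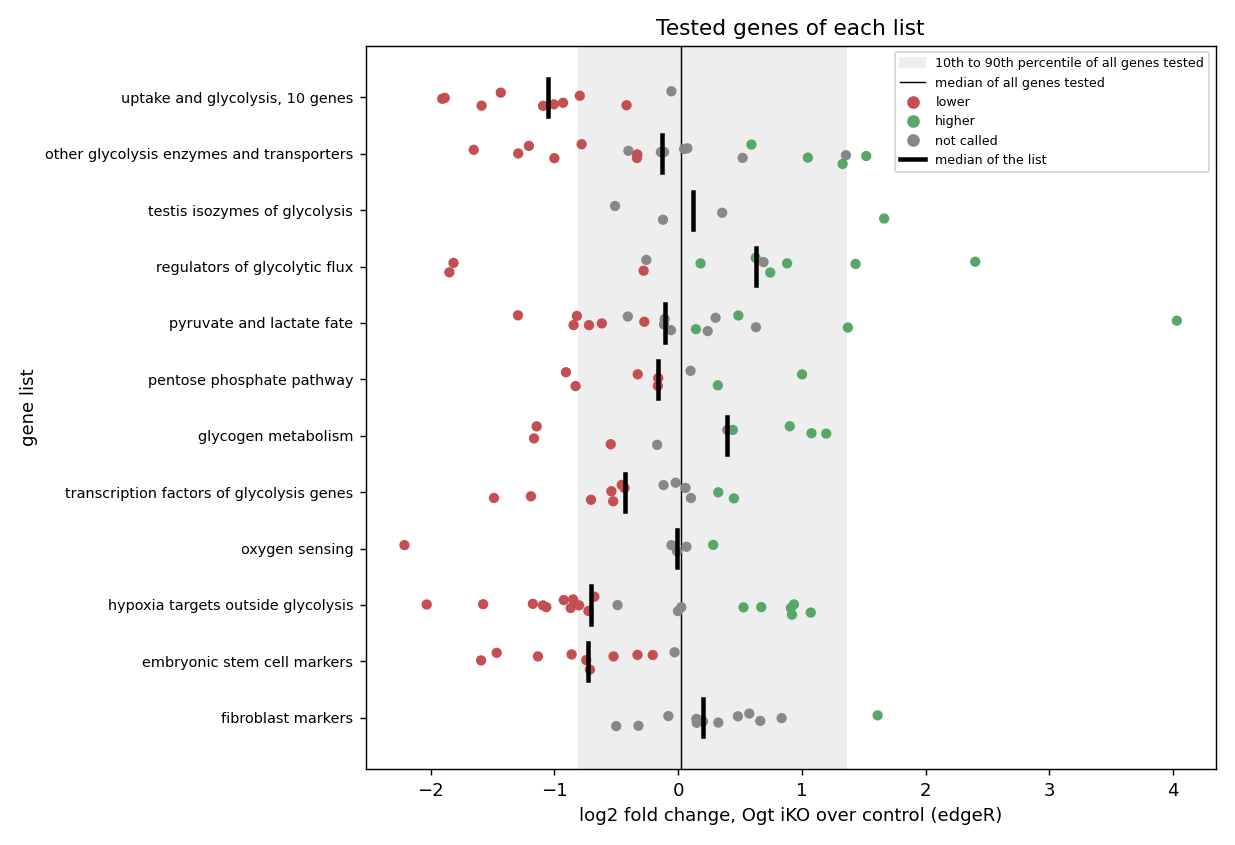
Log2 fold changes, Ogt iKO over control (edgeR), of the tested genes of each list, with a black bar at the list's median and a grey band from the 10th to the 90th percentile of all genes tested (-0.80 to 1.36). Points are red for lower, green for higher and grey for not called; the 10 uptake and glycolysis genes all lie below 0, while the other glycolysis list spreads to both sides.

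Promoter sequences were looked at because 9 of the 10 genes fell together and several are textbook targets of hypoxia-inducible factors. RefSeq gave 15 start sites for 9 of the genes and none for Slc2a3. The core of the hypoxia response element, ACGTG, was searched on both strands from 250 bases before to 50 after each start. It was found at 7 of the 15 start sites, in 6 of 9 genes, against 19.6% of all 32851 windows and 21.8% of all genes in the table. Aldoa has start sites with overlapping windows that share the same match, which is counted at each of them. Pkm matched only at a start whose first transcribed bases were not found in GENCODE transcripts. The 9 genes also had more windows per gene than the 27025 genes with 32851 windows. Shares of all genes are therefore not a like background for them. The E-box CACGTG, which is bound by MYC proteins and contains the core on both strands, was found in 1 of the 9 genes, Ldha, against 8.09% of all genes. Matches were present for Hk1, which was not called, and absent for Pfkl, Pfkp and Pdk1, which fell. In the 250 bases before the start alone, 5 of the 9 genes had the core, against 18.5% of all genes, and Hk1 had none. The same limits hold for these counts.

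The 250 bases before the start are shown 5′ to 3′ on the gene's strand (RefSeq, GRCm38.p6), with every match to the core on either strand in capitals. Ldha is shown for the 5 matches at 1 of its starts, 4 of them inside 2 E-boxes, at chr7:46845554-46845803 on the plus strand. The first transcribed bases of this start were not found in GENCODE transcripts, and the other Ldha start (chr7:46846832-46847081), whose bases were found, has 0 matches to the core and 0 to the E-box. Hk2 (chr6:82774455-82774704, minus strand) has 2, and Slc2a1 (chr4:119108495-119108744, plus strand) and the second start of Aldoa (chr7:126799255-126799504, minus strand) have 1 each. Pfkp (chr13:6648772-6649021, minus strand) is shown as the gene with the largest fall and no match.
Ldha: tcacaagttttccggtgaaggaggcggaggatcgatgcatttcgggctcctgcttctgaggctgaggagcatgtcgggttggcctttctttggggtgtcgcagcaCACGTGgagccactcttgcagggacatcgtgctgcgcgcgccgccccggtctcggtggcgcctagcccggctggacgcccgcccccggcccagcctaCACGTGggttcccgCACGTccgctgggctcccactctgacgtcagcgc
Hk2: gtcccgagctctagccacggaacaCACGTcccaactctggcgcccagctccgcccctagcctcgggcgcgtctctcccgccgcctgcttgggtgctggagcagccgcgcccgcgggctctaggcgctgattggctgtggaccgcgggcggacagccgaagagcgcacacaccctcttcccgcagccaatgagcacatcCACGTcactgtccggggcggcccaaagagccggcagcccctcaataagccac
Slc2a1: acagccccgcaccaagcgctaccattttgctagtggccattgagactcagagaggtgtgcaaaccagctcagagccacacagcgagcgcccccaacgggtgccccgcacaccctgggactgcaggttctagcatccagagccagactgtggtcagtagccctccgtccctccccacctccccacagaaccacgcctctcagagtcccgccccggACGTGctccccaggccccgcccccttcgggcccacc
Aldoa: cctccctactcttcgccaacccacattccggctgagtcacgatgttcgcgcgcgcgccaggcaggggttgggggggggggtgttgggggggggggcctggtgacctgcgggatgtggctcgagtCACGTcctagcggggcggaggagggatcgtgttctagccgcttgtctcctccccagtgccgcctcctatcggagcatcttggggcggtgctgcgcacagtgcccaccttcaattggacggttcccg
Pfkp: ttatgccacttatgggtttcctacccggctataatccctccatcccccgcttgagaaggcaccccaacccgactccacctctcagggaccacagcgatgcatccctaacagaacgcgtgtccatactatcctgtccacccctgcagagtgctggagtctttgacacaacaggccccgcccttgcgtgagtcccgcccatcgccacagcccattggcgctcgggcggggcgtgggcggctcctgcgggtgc

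A match is a description of letters and not of binding. GC content of these windows ran from 62.8% (Pfkp) to 69.6% (Hk2), with 13 (Slc2a1) to 25 (Hk2 and Ldha) CpG dinucleotides.

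The scale of the comparison changed the size of the falls and not their calls. Scaling libraries by their totals alone moved the median over all genes tested from 0.024 to 0.19 on the log2 scale. On that scale the log2 fold changes of the 9 genes ran from -1.74 (Pfkp) to -0.25 (Pdk1), and all 9 still passed the threshold. Leaving out 1 library at a time, Pfkp ran from -1.97 to -1.86 and Pdk1 from -0.53 to -0.33.

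**Figure D5:**
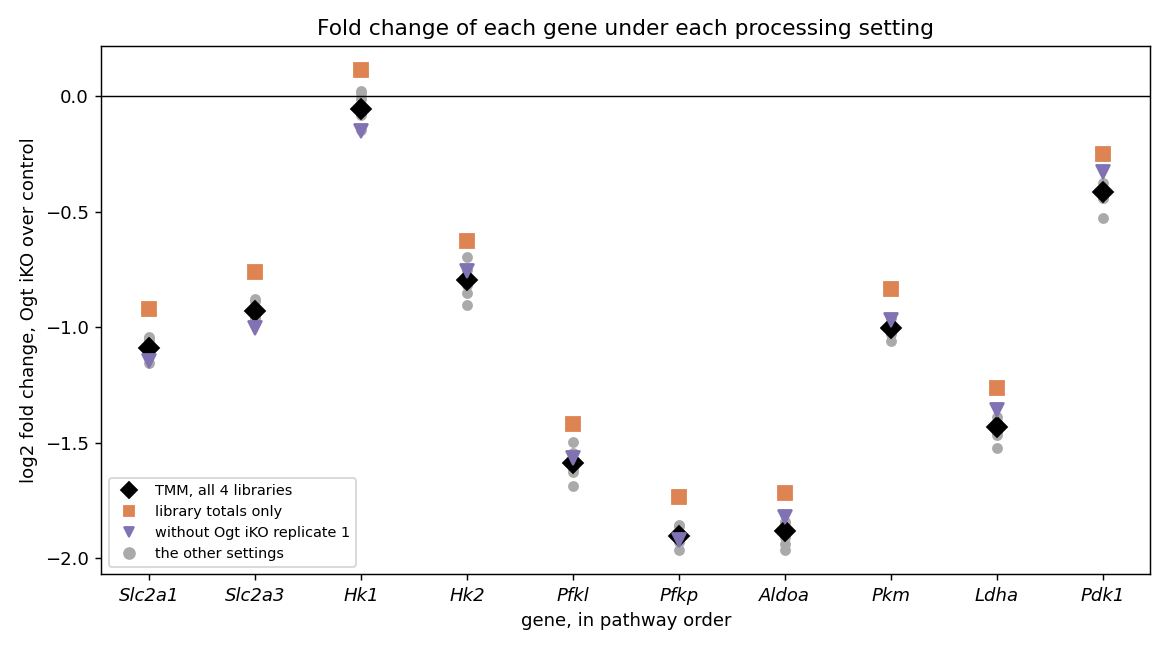
Log2 fold change of each of the 10 genes under 13 processing settings, with black diamonds for TMM scaling of all 4 libraries, orange squares for scaling by library totals and purple triangles without Ogt iKO replicate 1. Scaling by totals gives the highest value for every gene, and only that of Hk1 moves across 0.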

How the data were processed

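The authors deposited 1 table of raw gene counts per library, with no normalization. STAR, Picard and the build mm10 are named without versions in the submitters' processing notes. The annotation, the strand counted and the treatment of reads that map to several places are not given in the sources used here. Groups and replicate numbers came from the titles in the labels. The tests used R 4.3.3 and edgeR 4.0.16, with the quasi-likelihood test, TMM scaling, filterByExpr and no covariate. P-values were adjusted by Benjamini-Hochberg over 14525 genes and calls at an adjusted p under 0.05. Each standard error was derived from the fold change and the F statistic. Precision was limited by 2 libraries a group and total counts of 14668489 to 16504204. Replicates of both groups differed beyond sampling noise (chi-square per degree of freedom 7.04 for Ogt iKO and 4.25 for control).

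The fit was tested on simulated data of this comparison, with 14269 genes tested. It recovered 53.6% of genes changed 1.5-fold and 89.8% of those changed 3-fold, and called 0.128% of unchanged genes. Gene positions, exon lengths and transcript words came from GENCODE M21 (GRCm38, the assembly of mm10), and promoters from RefSeq (GRCm38.p6). Protein sequences were not used here. Alternatives were other scalings, filters, DESeq2 1.42.0, a robust spread, the replicate block, stricter calls and leaving out each library. The 10 genes and the lists were chosen with earlier results of these data known. Named were the 10 genes, every tested gene of the other glycolysis list, up to 4 genes of each further list with the smallest adjusted p, Ogt, Epcam and Thy1, and genes said to be chosen after their values were seen.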

Additional observations from a re-analysis of the deposited data

How the results depend on the processing

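Of the 10 genes, 9 were called lower and none higher under each of the other scalings, filters, tools and thresholds and without any 1 library. Hk1 was called under none of them. Without Pkm, 8 of 9 were lower, a count chosen after seeing the data. With library totals for scaling, log2 fold changes changed sign for Hk1 (0.11), Gpi1 (0.055), Ldhb (0.029), Gapdhs (0.046), Hif1an (0.12) and Pdk3 (0.055), pentose phosphate genes lower were 2, transcription factors higher 4 and oxygen sensing genes higher 2. With DESeq2, pyruvate and lactate genes higher were 2 and oxygen sensing genes higher 0, where edgeR had Vhl at an unadjusted p of 0.0137. Pentose phosphate genes lower were 3 with upper quartile scaling. The cause was not tested.

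Deviations from the group mean correlated little between the replicates numbered 1 of the groups (0.0859 over 14525 genes). That value weighs all tested genes alike, noisy ones too, so it cannot exclude that the replicate numbers pair the samples. A replicate block left 9 of the 10 genes lower, with 3 pentose phosphate genes lower.

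Leaving out 1 library at a time gave ranges of log2 fold change from -0.15 to 0.024 for Hk1, -0.37 to 2.98 for Hk3, -0.12 to 0.18 for Pfkm, -0.013 to 1.34 for Eno2, -0.00037 to 0.12 for Egln2, -0.34 to 1.10 for Fbn1, -0.75 to 1.55 for Col1a1, -0.59 to 1.30 for Col1a2 and -0.80 to 0.69 for Thy1. Pentose phosphate genes lower ran from 3 to 5 and oxygen sensing genes higher from 0 to 1. Fibroblast markers higher ran from 1 to 12, the most without Ogt iKO replicate 2, and lower from 0 to 11, the most without Ogt iKO replicate 1.

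Differences in isozyme share, Ogt iKO minus control in percentage points, moved with exon length. With principal transcript lengths, chosen after seeing the data, they were -9.85 for Hk2, -20.1 for Pfkl, -8.21 for Pfkp, -3.39 for Aldoa and -9.48 for Ldha. With raw counts they were -18.4 for Pfkl, -8.86 for Pfkp, -6.001 for Aldoa and -7.49 for Ldha. With 2 libraries a group, simulated 1.5-fold changes were recovered for 53.6% of genes, in a simulation where far fewer genes changed than were called in the data.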
